A study of Rattus norvegicus with 14 samples.

Results

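The high-affinity receptor for immunoglobulin E (IgE) is built from 3 kinds of chain, and this account follows the genes that encode them, Fcer1a, Fcer1g and Ms4a2, through the rat pineal gland and retina over 1 day. The genes were taken by symbol from the deposited expression table, and they are 3 of its 16472 genes. They had been singled out because Fcer1a changed with the time of day in the pineal gland, so the levels of the 3 chains are given as a description, without a test.

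The animals were Sprague-Dawley rats, 6 to 8 weeks old, under a cycle of 14 h light and 10 h dark. Zeitgeber time (ZT) counts the hours from lights on. Pineal glands and retinas were each collected 3 times before lights off (ZT1, ZT7, ZT13) and 3 times after it (ZT15, ZT19, ZT23), and every library of these 12 came from a pool of 10 animals. As a reference, 15 tissues of 3 animals, the retina among them, were pooled into a mixed-tissue sample at ZT7 and another at ZT19. The labels name no allele, drug or operation; the groups differ in tissue and hour and, for the mixed pools, in the number of animals and tissues pooled. There was 1 library per tissue and time, so the spread between animals was not measured, and differences between hours of a tissue contain both rhythm and error.

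The alpha chain (Fcer1a) carries the outer domains that hold the Fc part of IgE. The gamma chain (Fcer1g) forms pairs whose cytoplasmic tails carry the activation motif that recruits the kinase Syk, and it serves several other immunoglobulin receptors of macrophages and microglia. The beta chain (Ms4a2) spans the membrane several times and amplifies the signal, is typical of mast cells and basophils, and is regarded as needed for surface display of the receptor in rodents. The pineal gland makes melatonin at night, when noradrenaline from sympathetic nerves raises cyclic AMP in pinealocytes, and a nocturnal rise of the alpha chain transcript in rat pinealocytes has been described.

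In the rn4 build of the deposited table, Fcer1a (gene ID 25047) lies on chromosome 13 from base 89429982 to 89436507. Fcer1g (25441) is on the same chromosome from 87119464 to 87123902, with its start 2310.52 kb from that of Fcer1a, and Ms4a2 (25316) is on chromosome 1 from 214011050 to 214018999. Of the 3 genes, 1, Fcer1a, had an entry in the table of RefSeq promoters. Its upstream sequence in build GRCr8 is shown because the transcript moves with the night program of the gland. It covers chromosome 13 from 88224724 to 88224929 on the minus strand, 206 of the 250 bases before the gene start of the promoter entry. The bases nearest that start are left out, because they lie within the longest RefSeq span of the gene. The printed sequence therefore ends where that span begins. The capitals mark the 1 match to the cyclic AMP response element (CRE) core, TGACG, which reads CGTCA on this strand.
Fcer1a: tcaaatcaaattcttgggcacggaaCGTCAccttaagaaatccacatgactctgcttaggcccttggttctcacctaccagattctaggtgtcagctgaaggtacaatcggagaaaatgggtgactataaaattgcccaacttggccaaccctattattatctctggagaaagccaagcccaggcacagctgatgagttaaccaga

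A total of 5 motifs were searched on both strands of the 250 bases before each gene start, which for Fcer1a include the bases not printed above. The CRE core TGACG occurred in 18.96% of the 27457 promoters in the table, and in Fcer1a it began 225 bases before the start. The sequence GATAA, the core of GATA factor sites, had 1 match in Fcer1a and occurred in 23.2% of promoters. There was no match in Fcer1a to the full CRE TGACGTCA (1.70% of promoters), to the AP-1 motif TGANTCA (6.36%) or to TAATCC, the core bound by the pineal and photoreceptor factor CRX (6.33%). The full CRE contains the core, so these counts overlap. A match of 5 letters is a description of the sequence, and binding was not measured.

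Fcer1a was a night transcript in the pineal gland. Levels are given as FPKM, the fragments of a transcript scaled by its length and by the size of its library, which allows genes of different length to be set side by side. Pineal Fcer1a stood at 79.4 FPKM at ZT1, 9.78 at ZT7, 6.02 at ZT13, 2.31 at ZT15, 163.8 at ZT19 and 134.4 at ZT23. The highest libraries were those of late darkness, the library 1 h after lights on was intermediate, and the lowest was taken 1 h after lights off. From ZT15 to ZT19 the level differed 70.9-fold. Within the dark hours the value at ZT23 was 82.1% of that at ZT19. At ZT1 it was 59.0% of the value at ZT23, and by ZT7 it was 12.3% of the value at ZT1, 8.12-fold lower. The descent went on to the end of the light and past it, with ZT13 at 61.5% of ZT7 and ZT15 at 38.4% of ZT13.

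Ranked by FPKM among all 16472 genes of the same library, pineal Fcer1a was 99th from the top at ZT19, 156th at ZT23 and 330th at ZT1, against 3977th at ZT7, 5589th at ZT13 and 7977th at ZT15. The mean was 149.1 ± 20.7 FPKM (SD, n = 2) in late darkness (ZT19 and ZT23) and 31.7 ± 41.3 (SD, n = 3) in the light, and the groups did not overlap. The ZT15 library, also taken in the dark and at 2.31 FPKM the lowest, belongs to neither group. On the log2(FPKM + 1) scale the difference of means was 3.03. Leaving out any 1 pineal library moved it between 2.34 and 4.10. Of all genes tested, 3.04% were called higher in late darkness in the pineal gland, and nothing is read from the place of Fcer1a among them since the gene was chosen on this contrast.

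In the retina Fcer1a was low at every hour, with 2.49 FPKM at ZT1, 2.37 at ZT7, 2.51 at ZT13, 2.56 at ZT15, 1.40 at ZT19 and 2.02 at ZT23. Here both late dark libraries lay below the 3 light libraries, the opposite order to the pineal gland, and the difference on the log2(FPKM + 1) scale was -0.36. The mixed pools held 0.563 FPKM at ZT7 and 0.281 at ZT19. The pineal level was 117-fold that of the retina at ZT19 and 4.13-fold at ZT7, while at ZT15 the retina stood 1.11-fold above the pineal gland. Against the mixed pools the pineal level was 17.4-fold higher at ZT7 and 582-fold higher at ZT19. Ordered by mean, the pineal gland came first with 65.9 ± 71.0 FPKM (SD, n = 6 times), then the retina with 2.23 ± 0.448 (SD, n = 6) and the mixed pools with 0.422 ± 0.199 (SD, n = 2). Pineal and retinal ranges overlapped through the ZT15 pineal library alone, and all retinal libraries exceeded both mixed pools. Tph1, the serotonin-forming hydroxylase and a major pineal transcript, was at 2968 to 3848 FPKM in the pineal gland and 0.359 to 0.522 in the retina; the part of pineal RNA in retinal Fcer1a was not tested.

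**Figure D1:**
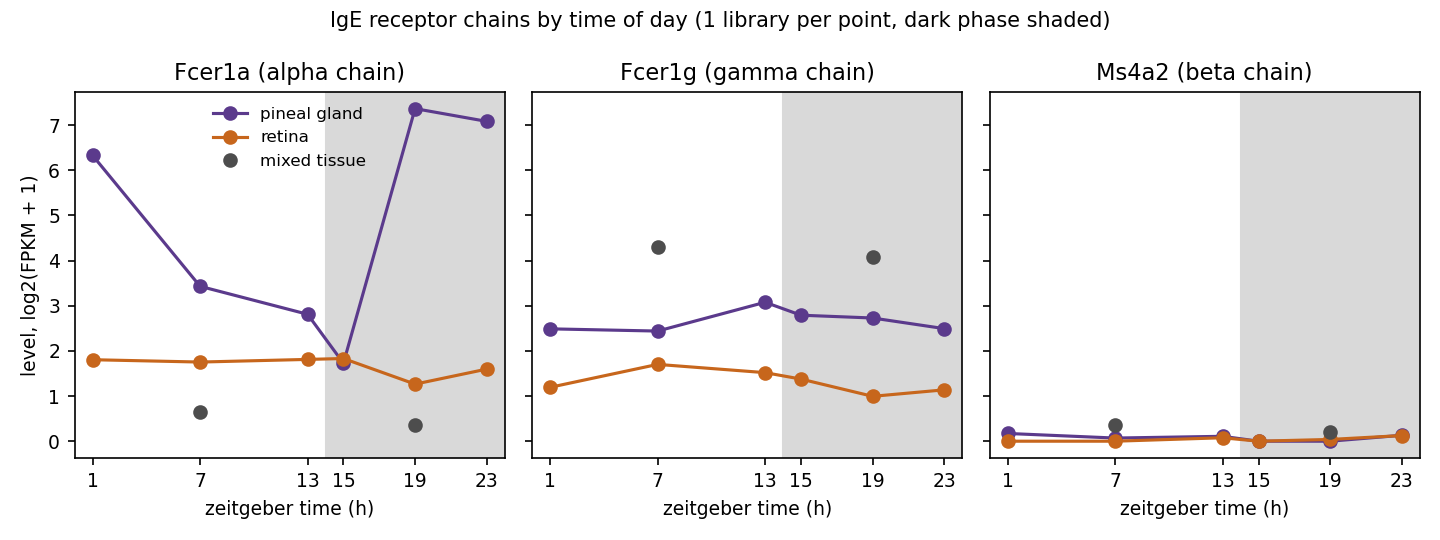
Level of Fcer1a, Fcer1g and Ms4a2, as log2(FPKM + 1), against zeitgeber time in hours, with 1 point per library for pineal gland, retina and mixed tissue. The pineal Fcer1a line climbs from 2.31 FPKM at ZT15 to 163.8 at ZT19, while the pineal Fcer1g line stays between 4.42 and 7.44 FPKM.

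Fcer1g kept a narrow range in the pineal gland. Its level was 4.61 FPKM at ZT1, 4.42 at ZT7, 7.44 at ZT13, 5.92 at ZT15, 5.63 at ZT19 and 4.63 at ZT23. The highest value fell at the end of the light, and the late dark libraries lay within the range of the light ones. The difference of late darkness from light was -0.06 on the log2(FPKM + 1) scale, and its sign was not stable, since quantile normalization gave 0.07 and leaving out single libraries gave -0.18 to 0.15. In the retina the gamma chain was at 1.29 FPKM at ZT1, 2.25 at ZT7, 1.86 at ZT13, 1.59 at ZT15, 0.992 at ZT19 and 1.1998 at ZT23, and the mixed pools held 18.6 at ZT7 and 15.9 at ZT19. The order of means was thus another than for the alpha chain, with 17.3 ± 1.90 FPKM (SD, n = 2) in the mixed pools, 5.44 ± 1.15 (SD, n = 6) in the pineal gland and 1.53 ± 0.468 (SD, n = 6) in the retina, and no 2 of these ranges overlapped.

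Ms4a2, the beta chain, was at the limit of detection. Pineal values were 0.126 FPKM at ZT1, 0.0495 at ZT7, 0.0782 at ZT13, 0 at ZT15, 0 at ZT19 and 0.0952 at ZT23. The libraries in which Fcer1a was highest and lowest, ZT19 and ZT15, were both listed at 0 for the beta chain. Retinal values reached 0.0907 FPKM at ZT23, and 3 of the 6 libraries were listed at 0. The mixed pools held 0.287 at ZT7 and 0.149 at ZT19, above every pineal and retinal library. The table gives no counts; a rough value of 1 fragment per kilobase, read from the lowest levels of olfactory receptor transcripts, was 0.0216 to 0.0527 FPKM in the different libraries, and the pineal Ms4a2 values were 0 to 3.43 times this value. Ms4a2 did not pass the filter on low values (1 FPKM or more in 2 or more libraries), which Fcer1a and Fcer1g passed. At this depth a change of the beta chain over the day could not be seen.

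The proportion of alpha to gamma transcript therefore swung across equality in the pineal gland. The ratio of Fcer1a to Fcer1g FPKM was 17.2 at ZT1, 2.21 at ZT7, 0.809 at ZT13, 0.390 at ZT15, 29.1 at ZT19 and 29.1 at ZT23. Gamma exceeded alpha at ZT13 and ZT15 and alpha exceeded gamma in the other 4 libraries. In the retina the ratio stayed between 1.05 and 1.94, and in the mixed pools it was 0.0303 at ZT7 and 0.0177 at ZT19. These are ratios of transcripts in whole tissue, and whether the chains are made in the same cells was not measured. In pools of whole tissue, fewer cells of a type and less RNA per cell cannot be told apart.

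**Figure D2:**
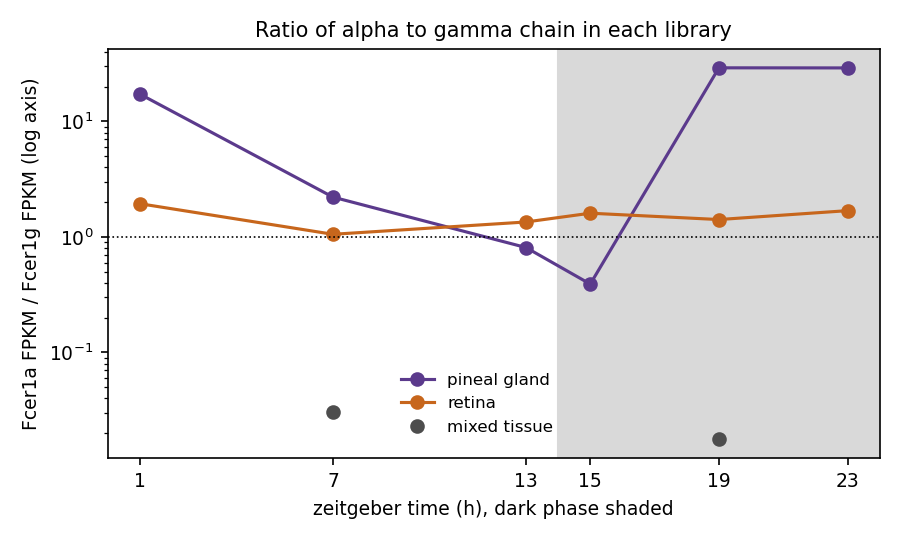
Ratio of Fcer1a to Fcer1g FPKM (log axis) against zeitgeber time in hours, 1 point per library, with a line at equality. Pineal points lie below equality at ZT13 (0.809) and ZT15 (0.390) and reach 29.1 at ZT19, whereas retinal points stay between 1.05 and 1.94.

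The pineal time course of Fcer1a resembled that of other night transcripts. Among 174 genes that reached 1 FPKM in 2 or more pineal libraries and whose log2 values spanned at least 2 there, the 10 with the highest Pearson correlation with Fcer1a over the 6 pineal libraries had r from 0.975 to 0.991. They were Atp7b, a copper-transporting ATPase whose pineal variant is known as the night-specific ATPase, with r = 0.991, then the kinase Dclk1 (0.988), the receptor tyrosine kinase Tyro3 (0.984), the orexin receptor Hcrtr1 (0.984), the glutaminase Gls2 (0.984), the ethanolamine kinase Etnk1 (0.981), Aanat (0.978), the ciliary protein gene Fam161a (0.977), the calcium sensor Ncald (0.976) and Kctd3 (0.975). All points come from the same 6 libraries, and with so few the correlations describe a shape and carry no test. Aanat, the enzyme that paces melatonin synthesis, was at 396 FPKM at ZT1, 7.05 at ZT7, 5.13 at ZT15, 650 at ZT19 and 857 at ZT23, so its higher late dark value was at ZT23 where that of Fcer1a was at ZT19. At ZT1 the transcripts stood at different shares of their ZT23 level: 46.2% for Aanat, 49.4% for Atp7b, 59.0% for Fcer1a, 84.4% for Tyro3 and 87.2% for Gls2.

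Of these 10 genes, 9 were in the promoter table, and 6 of the 9 held the CRE core within 250 bases before the start, beside 18.96% of all promoters; the share was not matched for base composition. The sites are shown with 10 bases on each side, in the direction of the gene and with the core in capitals, so that their flanks can be set beside that of Fcer1a. Positions count back from the gene start of the promoter entry, which for Fcer1a lies within its longest RefSeq span.
Fcer1a, -225: gggcacggaaCGTCAccttaagaaa
Dclk1, -38: gctgggaagaCGTCAgccttacgca
Tyro3, -129: tcctcgctgcTGACGgcggtggccg
Hcrtr1, -120: cagggctttcTGACGtctttggaca
Gls2, -224: tccccagcccTGACGcgtttccacg
Gls2, -166: gccacagagcTGACGcgcgggtgtc
Etnk1, -79: gccggccgccTGACGcagccgaggc
Etnk1, -51: gccctcggcgTGACGctagcgtcag
Etnk1, -42: gtgacgctagCGTCAggccagtccc
Aanat, -200: gtaccaccgaTGACGccagccctca
Etnk1 held 3 matches and Gls2 held 2, while Atp7b, the gene most like Fcer1a in time course, held none, as did Fam161a and Kctd3.

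Fcer1g resembled other genes through its order of tissues. Over all 14 libraries, and among the 11656 genes that reached 1 FPKM in 2 or more of them, the 10 most like it were Cd34, Sspn, Fam198b, Itgb1, Pccb, Pygm, Ifitm2, Laptm4a, Lgals8 and C1r, with r from 0.985 to 0.991. All points share the 3 tissues, and the correlation within a tissue was not computed. Cd34, a surface protein of blood progenitors and vessel lining, ranged from 2.69 to 3.87 FPKM in the pineal gland and from 0.311 to 1.03 in the retina. C1r, a complement protease, ranged from 7.33 to 14.2 in the pineal gland.

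**Figure D3:**
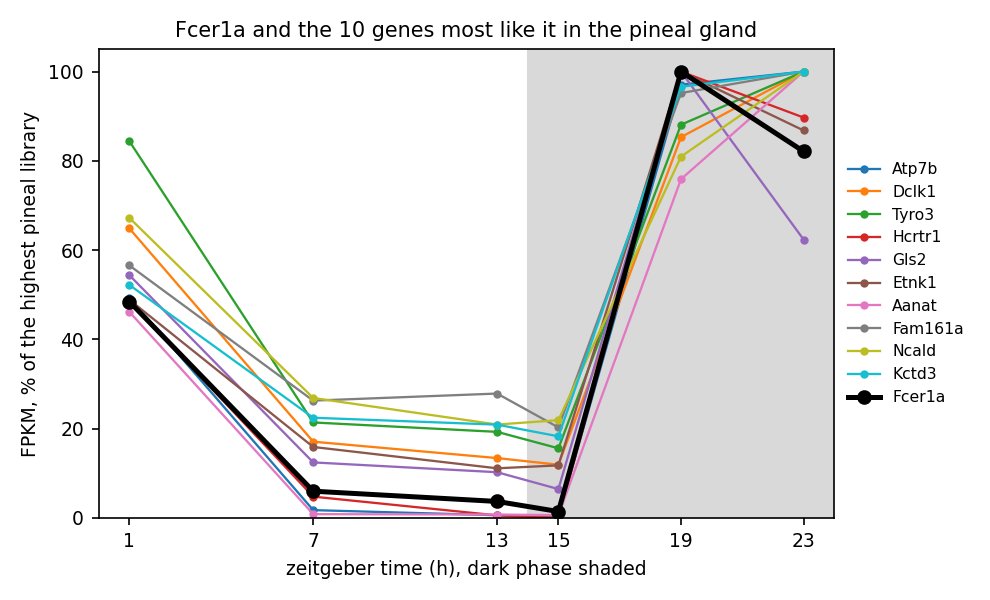
Level of Fcer1a and of the 10 genes most like it in the 6 pineal libraries, each as a percentage of its own highest library, against zeitgeber time in hours. All lines are high at ZT19 and ZT23 and low from ZT7 to ZT15, and they differ in how far they have fallen at ZT1.

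The genes beside Fcer1a on the chromosome were listed at 0 or had a narrower range than Fcer1a. Within 250 kb in rn4, a window chosen after the values were seen, the table held the olfactory receptor genes Olr1579, Olr1581, Olr1582 and Olr1583, all at 0 FPKM in every pineal library. The remaining neighbour, the cell adhesion gene Cadm3, ranged from 42.0 to 68.4 FPKM in the pineal gland, with its highest value at ZT23.

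Apart from the receptor chains, lists of genes were followed through 5 comparisons fitted with limma on log2(FPKM + 1) over all genes that passed the filter, with Benjamini-Hochberg adjusted p under 0.05 as threshold. For the time of day, a 24 h rhythm was called for 20.7% of 10416 genes in the pineal gland (6.61% peaking in the dark, 14.1% in the light). In the retina the share was 1.02% (0.317% in the dark, 0.701% in the light). Late darkness (ZT19 and ZT23) differed from light for 7.28% in the pineal gland (3.04% higher, 4.23% lower) and for 0.0096% in the retina. Between the tissues, with times as replicates, 68.9% of 11656 genes differed (36.9% higher and 32% lower in the pineal gland). Each p-value rests on the spread between libraries of different hours. The lists together held 99 tested genes for the time comparisons, of which 28 were called rhythmic and 19 different in late darkness in the pineal gland, and no gene was called in the late dark contrast of the retina by limma, where 11 had an unadjusted p under 0.05.

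The proteases of mast cells, the classical bearers of the receptor, were scarce in the pineal libraries, while some other mast cell markers were not. The 12 mast cell and basophil proteases measured summed to between 0.0803 and 0.578 FPKM, no single one exceeded 0.417, and 4 of the 12 were listed at 0 in all 6 pineal libraries. Carboxypeptidase Cpa3, a marker of the mast cell granule, was between 0 and 0.0265 FPKM. The same proteases summed to between 0.0608 and 0.268 FPKM in the retina and to 4.16 and 6.57 in the mixed pools, where Fcer1a was lowest. Of the whole list of mast cell and basophil markers, 19 of 22 genes were matched and 4 entered the time comparisons. None was called in late darkness, beside 7.28% of all genes, or reached an unadjusted p under 0.05 there. The list summed to between 34.5 and 84.3 FPKM in the pineal gland, most of it Kit, against 3.96 to 5.65 in the retina and 25.0 and 35.8 in the mixed pools. Gata1 was at 0.0577 to 1.21 FPKM in the pineal gland and at most 0.0296 in the retina.

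The single mast cell marker that was abundant in the gland, Kit, had another course than Fcer1a. Kit encodes the receptor for stem cell factor and is made by several cell types besides mast cells. It stood at 31.6 FPKM at ZT1, 75.0 at ZT7, 76.2 at ZT13, 76.6 at ZT15, 76.3 at ZT19 and 27.6 at ZT23. The libraries of ZT23 and ZT1 were the low ones, while Fcer1a was high in both. The rhythm of Kit was called with a fitted peak at ZT12.4 and a peak-to-trough difference of 1.44 log2 (limma, adjusted p = 0.0128). Kit was the 1 rhythmic gene of the 4, beside 20.7% of all genes. The call was lost without the ZT23 library (0.0674) and when the pineal gland was fitted alone (0.0817). Across tissues 4 of 5 tested markers were higher in the pineal gland and none lower, beside 36.9% and 32% of all genes. The remaining one, the protease gene Mcpt2, was listed at 0 in every pineal and retinal library and passed the filter through the mixed pools. The 4 were Kit by 3.98 log2 (SE 0.25, adjusted p = 1.14e-09), the transcription factor gene Gata2 by 1.26 (SE 0.08), the histamine-forming enzyme Hdc by 0.78 and the granule proteoglycan Srgn by 0.76. Hdc reached 1 FPKM in no library other than pineal ZT1 and ZT19, so it passed the filter through the pineal gland alone.

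**Figure D4:**
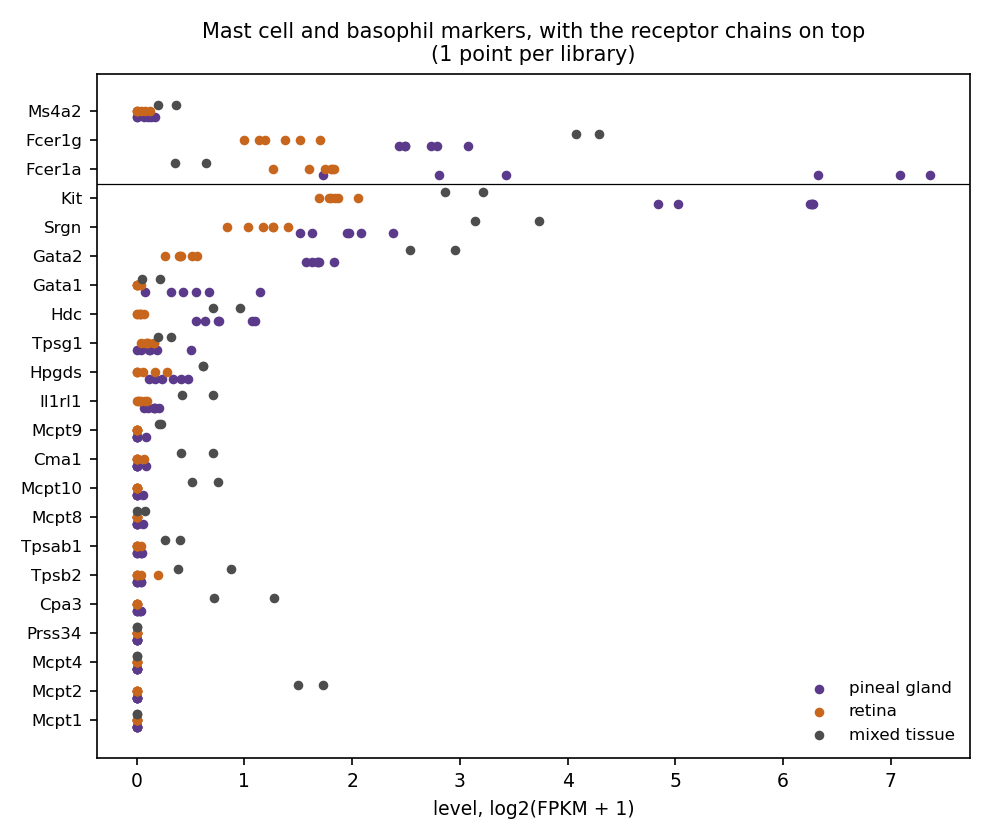
Level of the 3 receptor chains and of each matched mast cell and basophil marker, as log2(FPKM + 1), with 1 point per library for pineal gland, retina and mixed tissue. The proteases lie near 0 in the pineal gland (no value above 0.417 FPKM), while Kit and Fcer1a reach 76.6 and 163.8 FPKM there.

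Macrophage and microglia markers, the other usual setting of the gamma chain, were present in the gland throughout. Their summed level was 106 FPKM at ZT1, 109 at ZT7, 143 at ZT13, 110 at ZT15, 83.6 at ZT19 and 98.0 at ZT23, with the highest library the same one, ZT13, as for Fcer1g. All 20 genes of the list were matched and 17 entered the time comparisons. None was called in late darkness, beside 7.28% of all genes, and 6 had an unadjusted p under 0.05. The median difference of the list was -0.30 beside -0.12 over all genes. Without the pineal ZT1 library 3 were called, and 1 without pineal ZT23, retinal ZT19 or retinal ZT23. With all libraries 2 of 17 were rhythmic, beside 20.7% of all genes, and both had peaks in the light. They were the lysosomal protein gene Cd68 (0.76 log2, limma adjusted p = 0.00803, lost in 3 of 16 refits) and Emr1 (0.61 log2, adjusted p = 0.0408, lost in 11 of 16). Leaving out single libraries moved the count of 2 between 0, without pineal ZT23, and 7, without pineal ZT7. In the time series Emr1 reached 1 FPKM only in pineal ZT7 (1.45), ZT13 (1.59) and ZT15 (1.08), so it passed the filter through its higher libraries. Against the retina 18 of 19 were higher in the pineal gland and none lower, beside 36.9% and 32% of all genes. The largest differences were those of Cd74, the invariant chain of antigen presentation, by 3.69 log2 (SE 0.21), lysozyme Lyz2 by 2.28 (SE 0.18) and the growth factor receptor Csf1r by 1.95 (SE 0.12). The sums were 20.7 to 33.3 FPKM in the retina and 628 and 422 in the mixed pools, the same order of tissues as for Fcer1g. The part of these cells in the gamma chain level was not tested.

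Markers of other blood cells, most of their sum from haemoglobin transcripts, stood at 993 FPKM in the ZT19 pineal library and 1504 to 1870 in the other 5, against 68.2 to 138 in the retina. Of 6 blood cell markers tested for time of day none was called in late darkness (4 had an unadjusted p under 0.05). Only 1 of the 6, the T cell coreceptor gene Cd8a, was rhythmic with a peak in the dark, a call lost with the gland fitted alone. In the time series Cd8a reached 1 FPKM only in pineal ZT1, ZT19 and ZT23, so it passed the filter through its higher libraries. Of 10 blood cell markers tested across tissues 7 were higher in the pineal gland, beside 36.9% of all genes.

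The ratio of Fcer1g to Tyrobp, another small adaptor with an activation motif found in macrophages and microglia, was 0.644 at ZT1, 0.549 at ZT7, 1.17 at ZT13, 1.01 at ZT15, 1.28 at ZT19 and 0.969 at ZT23 in the pineal gland. It lay between 0.671 and 0.871 in the retina and at 1.04 and 1.32 in the mixed pools. Of the list of such adaptors and their partner receptors, 10 of 11 genes were matched and 2 entered the time comparisons. Over all genes 7.28% were called in pineal late darkness and 20.7% were called rhythmic there. Tyrobp was lower in late darkness by limma (-0.55 log2, SE 0.15, adjusted p = 0.0472), a call lost in 12 of 17 refits, and was rhythmic with a peak in the light (0.77 log2, adjusted p = 0.0288), lost in 8 of 16. The interleukin-3 receptor gene Il3ra was rhythmic with a peak in the light (0.64 log2, adjusted p = 0.0424), lost in 12 of 16 refits. Across tissues all 5 tested were higher in the pineal gland, beside 36.9% of all genes. They were Il3ra by 1.26 log2 (SE 0.14), Tyrobp by 1.25 (SE 0.14) and Hcst by 0.70 (SE 0.12), and with lower pineal levels Csf2rb and Clec7a. With either mixed pool left out the count was 3.

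Several components of the pathway that IgE receptors engage were present at higher levels in the pineal gland than in the retina, and few moved with the hour. Of 36 signalling genes 33 were matched. Between tissues 25 were tested, of which 15 were higher and 8 lower in the pineal gland, with a median of 0.33 log2 beside 0.03 over all genes; the shares over all genes were 36.9% and 32%. Plcg2, the phospholipase that Syk activates in blood cells, ranged from 6.79 to 15.2 FPKM in the pineal gland and from 0.225 to 0.603 in the retina, a difference of 3.02 log2 (SE 0.16, limma adjusted p = 1.25e-10). The calcium channel gene Orai1 was higher by 1.95 (SE 0.15, adjusted p = 1.14e-08), with 11.7 to 23.5 FPKM in the pineal gland and 3.19 to 5.73 in the retina. Syk itself, the kinase recruited to the gamma chain, was at 1.75, 2.31, 2.90, 2.52, 1.75 and 1.42 FPKM from ZT1 to ZT23 in the pineal gland and at 0.118 to 0.328 in the retina, a difference of 1.33 log2 (SE 0.10, adjusted p = 1.54e-08). The adaptor genes Shc1 (1.17 log2) and Grb2 (0.91) and the Src family kinase gene Lyn (0.87), which phosphorylates the receptor tails, followed.

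The genes that were lower in the pineal gland included protein kinase C beta, Prkcb, at 1.34 to 2.04 FPKM against 13.9 to 15.6 in the retina (-2.60 log2, limma adjusted p = 2.45e-13). The exchange factor gene Vav3 was lower by 1.72 log2, at 0.560 to 2.17 FPKM in the pineal gland and 5.72 to 6.53 in the retina, and the kinase gene Fyn (-0.94) was also lower. The 6 pineal libraries lay above the 6 retinal ones for Plcg2, Orai1, Syk, Shc1, Grb2 and Lyn, and below for Prkcb, Vav3 and Fyn. The adaptor gene Lat2 was scarce, with at most 0.193 FPKM in the pineal gland.

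**Figure D5:**
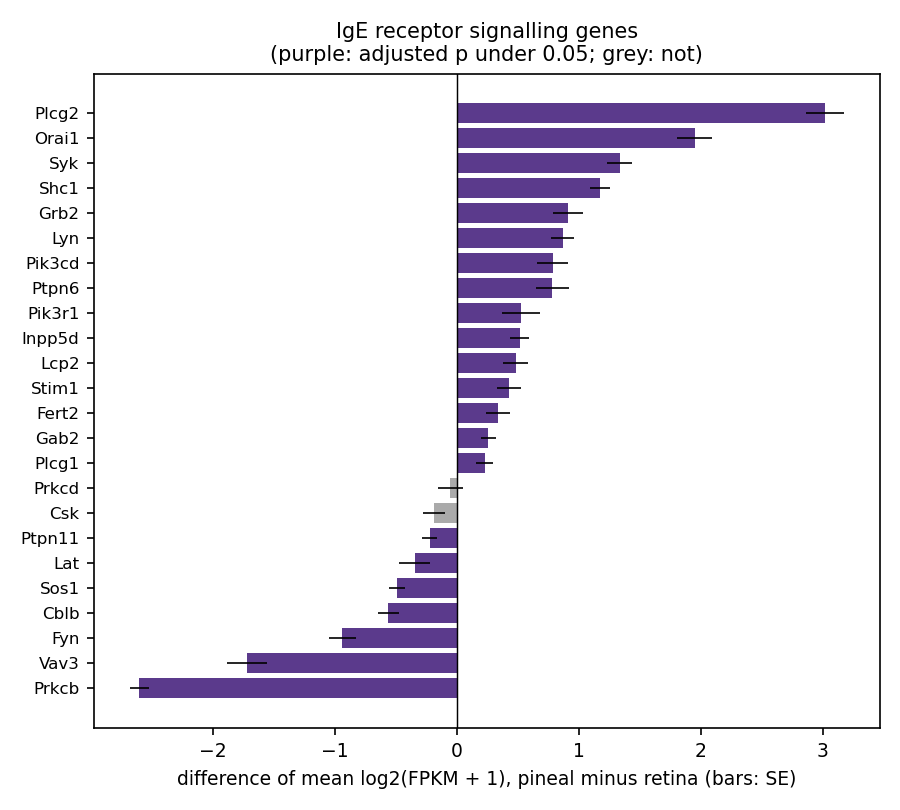
Difference of the pineal gland from the retina on the log2(FPKM + 1) scale for tested genes of the IgE receptor signalling list, 1 of them left out, with bars of 1 standard error from limma. Plcg2 (3.02), Orai1 (1.95) and Syk (1.33) lie on the pineal side, Prkcb (-2.60) and Vav3 (-1.72) on the retinal side.

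Over the day, 2 of 23 signalling genes were rhythmic in the pineal gland, beside 20.7% of all genes, and both had fitted peaks in the light, Grb2 at ZT10.1 (peak to trough 0.73 log2, limma adjusted p = 0.0154) and Syk at ZT11.2 (0.63 log2, adjusted p = 0.0239). Syk was thus highest near ZT13, when Fcer1a was low. The call for Grb2 was lost without the ZT23 library (0.0754) and with the gland fitted alone (0.0917), and that for Syk in 5 of 16 refits. The count of 2 became 0 without ZT23 and 5 without ZT7. In late darkness no signalling gene was higher and 2 of 23 were lower by limma, beside 3.04% and 4.23% of all genes. The 2 were the phosphoinositide 3-kinase subunit genes Pik3cd (-0.56 log2, SE 0.13, adjusted p = 0.0289) and Pik3r1 (-0.59, SE 0.15, adjusted p = 0.0429), lost in 9 and 12 of 17 refits. Without ZT1 the count was 4, and without pineal ZT13, retinal ZT19 or retinal ZT23 it was 0. The median of the list was -0.19 beside -0.12 over all genes. In the retina none of the 23 was called in either time comparison by limma, with 1 unadjusted p under 0.05 for rhythm and 0 for late darkness. The retinal shares over all genes were 1.02% for rhythm and 0.0096% for late darkness, so a count of 0 says little about this list.

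Among other receptors for immunoglobulins, 11 of 12 genes were matched and 3 entered the time comparisons. Over all genes 3.04% were called higher and 4.23% lower in pineal late darkness, and 20.7% were called rhythmic. None of the 3 receptor genes was called higher in late darkness. The Fc receptor-like gene listed as Fcrls was lower (-0.72 log2, SE 0.17, limma adjusted p = 0.0296, lost in 11 of 17 refits). It was also rhythmic with a peak at ZT8.89 (1.07 log2, adjusted p = 0.00852, lost in 2 of 16 refits). Across tissues 5 of 7 were higher in the pineal gland and none lower, beside 36.9% and 32% of all genes. Lgals3, a galectin that binds IgE and its receptor, was at 110 to 174 FPKM in the pineal gland and 1.23 to 3.54 in the retina, a difference of 5.39 log2 (SE 0.21, adjusted p = 3.79e-12), and its highest pineal library was ZT1. Fcrls (1.54), the neonatal Fc receptor gene Fcgrt (1.27), Fcgr1a (0.41) and Fcgr2b were also higher, the last lost in 5 of 15 refits. Fcgr2b was scarce, at 0.0745 to 0.420 FPKM in the pineal gland and 0.0253 to 0.311 in the retina, and these ranges overlapped. It passed the filter through the mixed pools alone (1.92 and 1.86 FPKM). The low-affinity IgE receptor gene Fcer2, the other receptor for this class, was at most 0.175 FPKM in the pineal gland.

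Products released by IgE-activated cells were scarce in the gland or not called over the day. The cytokine genes Il4, Il5, Il13 and Il6 were listed at 0 in all 6 pineal libraries. Of 16 product genes 15 were matched and 4 entered the time comparisons, of which none was called for rhythm (2 had an unadjusted p under 0.05) or for late darkness (1). Over all genes the shares called were 20.7% and 7.28%. Across tissues, where 36.9% of all genes were higher and 32% lower in the pineal gland, 4 of 7 were higher there, the chemokine gene Ccl2 by 1.304 log2 (SE 0.10), the leukotriene enzyme gene Lta4h by 1.03 (SE 0.10), the prostaglandin D synthase gene Ptgds by 0.97 (SE 0.38) and Ptgs1 by 0.62 (SE 0.07), and 1, Ptgs2, was lower (-0.21, SE 0.09). The call for Ptgds was lost in 7 of 18 refits and that for Ptgs2 in 10 of 17. Ccl2 passed the filter through the pineal libraries (1.18 to 1.92 FPKM) and the ZT7 mixed pool (1.31), and was at most 0.0769 in the retina.

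Genes known to respond to cyclic AMP or to rise at night in the gland provided the setting for Fcer1a. Of 19 tested, 13 were higher in late darkness and none lower, with a median of 2.62 log2, and 13 were rhythmic with peaks in the dark. Over all genes 3.04% were higher and 4.23% lower in late darkness, and 6.61% were rhythmic with peaks in the dark. The list of night genes was drawn from knowledge of the pineal gland and from earlier results of these samples, so its direction is no independent evidence. In the retina none of the 19 was called in late darkness by limma (4 had an unadjusted p under 0.05) and 2 were rhythmic. The retinal shares over all genes were 0.0096% in late darkness and 1.02% for rhythm. Of 12 pinealocyte markers 1 was higher and 1 lower in late darkness, 7 were rhythmic, and 7 were higher and 2 lower than in the retina. Of 11 retina markers none was called in pineal late darkness (0 with an unadjusted p under 0.05), 1 was rhythmic in the pineal gland, and 10 were lower there than in the retina. Over all genes 20.7% were rhythmic in the pineal gland, and 36.9% were higher and 32% lower there than in the retina.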

How the data were processed

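RNA of pooled pineal glands, retinas and mixed tissue was sequenced, and the authors deposited FPKM values per transcript, per the file headers. TopHat 1.3.1 and Cufflinks 1.2.0, with the build rn4, are listed in the submitters' processing notes. Strandedness is not given in the sources used here and overlapping genes cannot be told apart, and FPKM sets every library relative to its own fragments. Read counts were not used, so depth is known only through a rough value of 1 fragment per kilobase (10th percentile of olfactory receptor levels above 0), 0.0216 to 0.0527 FPKM. The FPKM of the 16932 transcripts were summed per gene ID.

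Tests used limma 3.58.1 in R 4.3.3 on log2(FPKM + 1), for genes that reached 1 FPKM in 2 or more libraries, with trended empirical Bayes and Benjamini-Hochberg adjustment over all genes tested. Models were a 24 h cosine and sine within each tissue, phase means within each tissue with ZT15 apart, and tissue means over 14 libraries. The script was tested on simulated data. The receptor chains and gene lists were chosen with earlier results of these data known. From a list, called genes were named in order of absolute change, at most 6 per comparison, and from the mast cell, immunoglobulin receptor and microglia lists also the most abundant in the pineal gland; Cpa3, Lat2, Fcer2 and Tph1 were named outside this rule, after their values were seen. Some genes counted in the lists are not reported here by name. Alternatives were another pseudocount, no filter, quantile normalization, leaving out each library, single-tissue fits, ZT15 grouped with darkness, and time of day as a block.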

Additional observations from a re-analysis of the deposited data

Results flagged for a closer look

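The late dark minus light difference of Fcer1a was 3.39 log2 larger in the pineal gland than in the retina. In the pineal gland ZT19 and ZT23 both exceeded the 3 light libraries, and in the retina both were below them; this difference was not tested.

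Each summed list was also examined for a library that stood apart from the other 5 of its tissue, which chance gives for about 1 in 20 groups. In the retina the summed mast cell and basophil markers were highest at ZT7 with 5.65 FPKM, while the other 5 libraries lay between 3.96 and 4.54. In the pineal gland the summed pinealocyte markers were highest at ZT15 with 6384 FPKM, while the other 5 lay between 5659 and 5894; Fcer1a had its lowest pineal level in that library.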

How the results depend on the processing

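No late dark or tissue call of the named list genes refitted reversed its direction under the alternatives run. For rhythm calls only the size of the fitted curve was compared, which has no sign, so a reversal could not be seen. Among the receptor chains, which were not tested, the differences of Fcer1g (-0.18 to 0.15) and Ms4a2 (-0.12 to 0.01) changed sign. For the list genes of the pineal gland, the count of rhythmic genes (28) ranged from 13, without ZT23, to 43, without ZT7, when single libraries were left out and was 8 with the gland fitted alone. The late dark count (19) ranged from 10, without ZT7 or ZT19, to 31, without ZT1; it was 8 with the gland fitted alone and 0 with ZT15 grouped with darkness. The retinal late dark count (0) ranged from 0 to 2, the latter without retinal ZT1. The tissue count was 94 of 119 tested list genes (79%), beside 68.9% of all genes. It ranged from 87 to 94 when single libraries were left out and was 101 without the filter on low values. Time of day as a replicate block gave 83, though the labels do not say that tissues of an hour came from the same animals. The Ms4a2 difference of -0.05 became -0.38 at pseudocount 0.1, and the Fcer1a difference was 3.14 at pseudocount 0.1 and 2.97 after quantile normalization. Grouping ZT15 with darkness was not run for the receptor chains. The Fcer1a difference therefore holds for late darkness only, since ZT15 had the lowest pineal level (2.31 FPKM). Refits in which a gene did not pass the filter held no test of it and are left out of the following counts. Of the named list genes refitted, 31 kept their tissue call in 521 of 543 refits, 9 their rhythm call in 98 of 144, and 4 their late dark call in 24 of 68. The cause of these changes was not tested. With 1 library per hour the calls of time of day are weak evidence, and depth limits Ms4a2 and the mast cell proteases.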
